A study of Mus musculus with 69 samples.

Results

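The serum amyloid A genes of the mouse, Saa1, Saa2, Saa3 and Saa4, were 4 of the genes on a whole-genome array and were measured by 6 of the 41174 probes of this two-colour 4x44K Agilent design. The members were chosen by name because their levels moved in these arrays, so their own values are described here without a test. All 4 genes passed the filter on dim probes and belonged to the 17628 genes retained. Each of 69 arrays carried the lung RNA of 1 mouse in the red channel and a commercial pool of mouse RNA (Universal Mouse Reference RNA) in the green channel, and each value is the log2 ratio of lung to reference.

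The animals were female C57BL/6 mice, aged between 5 and 7 weeks on arrival and kept for a further 1 to 3 weeks before treatment. They had been instilled once into the trachea with titanium dioxide (TiO2) nanoparticles suspended in water containing 2% serum, or with the vehicle alone, for which the control labels name only water. NRCWE-001 is the TiO2 without charge and NRCWE-002 is the positively charged form. Each was given at 18, 54 or 162 µg per mouse, and lungs were taken on day 1 or day 28. Each of the 14 groups held 5 mice, except for the vehicle group of day 28 with 4. The arrays lay on 18 slides scanned on 12 days, between 61.4% and 87.8% of spots were well above background in the lung channel, and no spot was saturated. Markers of alveolar type 2 cells, the surfactant-producing cells of the lung, averaged a log2 ratio of 5.01 ± 0.10 (SD, n = 5) in the vehicle group of day 1, far above the reference pool.

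Serum amyloid A proteins are small apolipoproteins that travel on high-density lipoprotein and rise in blood during the acute phase, the early systemic reaction to injury and infection. Saa1 and Saa2 encode the major circulating acute-phase forms and are known mainly from the liver, Saa3 encodes a form made largely outside the liver, in macrophages, fat and epithelia of the lung and gut, and Saa4 is regarded as the constitutive member. Transcription of the inducible genes is known to respond to interleukin-1, interleukin-6 and tumour necrosis factor, through C/EBP, NF-κB and STAT3 factors.

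The genes lie together on chromosome 7. The 250 bases upstream of each start, from the RefSeq table of build GRCm38.p6, are shown because the members moved together. They lie at chr7:46742981-46743230 on the minus strand for Saa1, chr7:46751583-46751832 on the plus strand for Saa2, chr7:46715677-46715926 on the minus strand for Saa3 and chr7:46732604-46732853 on the minus strand for Saa4. Each is written 5′ to 3′ along the gene's own strand, with matches on either strand to the C/EBP core TTGCNNAA in capitals.
Saa1: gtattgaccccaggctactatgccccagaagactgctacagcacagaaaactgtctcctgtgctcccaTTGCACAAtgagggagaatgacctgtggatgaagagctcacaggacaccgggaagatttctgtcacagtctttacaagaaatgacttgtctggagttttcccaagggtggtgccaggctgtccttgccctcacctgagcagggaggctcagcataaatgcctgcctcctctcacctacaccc
Saa2: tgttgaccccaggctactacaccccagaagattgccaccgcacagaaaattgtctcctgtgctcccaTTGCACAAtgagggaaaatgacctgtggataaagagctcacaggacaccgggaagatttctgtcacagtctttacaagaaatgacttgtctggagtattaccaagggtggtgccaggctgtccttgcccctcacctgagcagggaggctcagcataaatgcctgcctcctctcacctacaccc
Saa3: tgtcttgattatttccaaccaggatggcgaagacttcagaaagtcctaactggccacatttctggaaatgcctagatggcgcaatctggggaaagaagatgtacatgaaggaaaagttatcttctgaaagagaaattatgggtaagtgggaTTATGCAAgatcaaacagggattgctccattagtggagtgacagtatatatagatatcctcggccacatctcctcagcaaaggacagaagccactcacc
Saa4: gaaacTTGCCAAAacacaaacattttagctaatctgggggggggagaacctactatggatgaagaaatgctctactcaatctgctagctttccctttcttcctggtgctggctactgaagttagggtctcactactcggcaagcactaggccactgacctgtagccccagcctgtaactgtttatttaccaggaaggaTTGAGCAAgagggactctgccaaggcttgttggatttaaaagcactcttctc

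Every promoter held the C/EBP core, against 9.56% of all 32851 promoters of the same length, once in Saa1, Saa2 and Saa3 and at 2 places in Saa4. The match lay 182 to 175 bases before the start of Saa1, 183 to 176 before Saa2 and 99 to 92 before Saa3, and in Saa4 the matches lay 245 to 238 and 52 to 45 bases before the start. No member held the STAT motif TTCNNNGAA (7.02% of all promoters), the κB consensus (3.9%) or the TATA box TATAAA (12.4%) in these letters. The promoters of Saa1 and Saa2 were 94.8% identical over their alignment, and the other pairs were 46.8% to 52.4% identical. The RefSeq table lists each of the symbols Saa1 and Saa2 as an older name of the other, and their transcripts are near-identical copies, so that the Saa1 and Saa2 probes may share signal.

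Saa3 had a wide span in the lung channel, from a spot intensity of 171.5 to 104378, while the reference channel of the same probe stayed between 749 and 2704. It was well above background on all 69 arrays, as was the first of the Saa1 probes, so that Saa3 could be followed in every animal.

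On day 1, the 5 vehicle lungs had Saa3 log2 ratios of -3.04, -3.36, -3.05, -3.78 and -3.36, so that Saa3 was far below the reference pool in all of them. After 18 µg of NRCWE-001 the values were -0.37, -1.72, -3.42, -2.13 and -1.43. At 54 µg of NRCWE-001 they were 2.21, 1.58, 3.85, -3.68 and -3.94, and at 162 µg they were 4.35, 3.72, 4.29, 5.15 and -3.51. The animals at 54 and 162 µg of NRCWE-001 thus fell into high values and values within or just below the vehicle range, with nothing between. Animals 4 and 5 at 54 µg and animal 5 at 162 µg were at the vehicle level.

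After 18 µg of NRCWE-002 the Saa3 log2 ratios on day 1 were -2.03, -3.49, -2.87, -2.88 and -2.83. At 54 µg they were 4.20, 1.20, 1.84, 4.65 and 2.31, and at 162 µg they were 3.49, 4.39, 4.41, 3.82 and -0.57. All 5 animals at each of the upper doses were above the highest vehicle lung, and animal 5 at 162 µg was the lowest of them by a wide margin.

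Expressed as the difference of group means on the log2 scale, Saa3 on day 1 stood 1.51 ± 0.51 (SE, n = 5 against 5) above vehicle at 18 µg of NRCWE-001, 3.32 ± 1.61 at 54 µg and 6.12 ± 1.60 at 162 µg, the last being 69.4-fold. For NRCWE-002 the differences were 0.50 ± 0.27 at 18 µg, 6.16 ± 0.69 at 54 µg (71.3-fold) and 6.43 ± 0.95 at 162 µg (86-fold). With the slide as a fixed block the difference at 18 µg of NRCWE-002 became 2.84, and with the scan day as a block 2.46. Without animal 5 the difference at 162 µg became 7.69 for NRCWE-001 and 7.35 for NRCWE-002. The group SD was 0.30 in the vehicle lungs, 3.58 at 54 µg of NRCWE-001 and 1.51 at 54 µg of NRCWE-002. In order of group means, NRCWE-002 at 162 µg was followed by NRCWE-002 at 54 µg, NRCWE-001 at 162 µg, NRCWE-001 at 54 µg, NRCWE-001 at 18 µg, NRCWE-002 at 18 µg and vehicle, and in all 6 neighbouring pairs the animals' values overlapped.

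**Figure D1:**
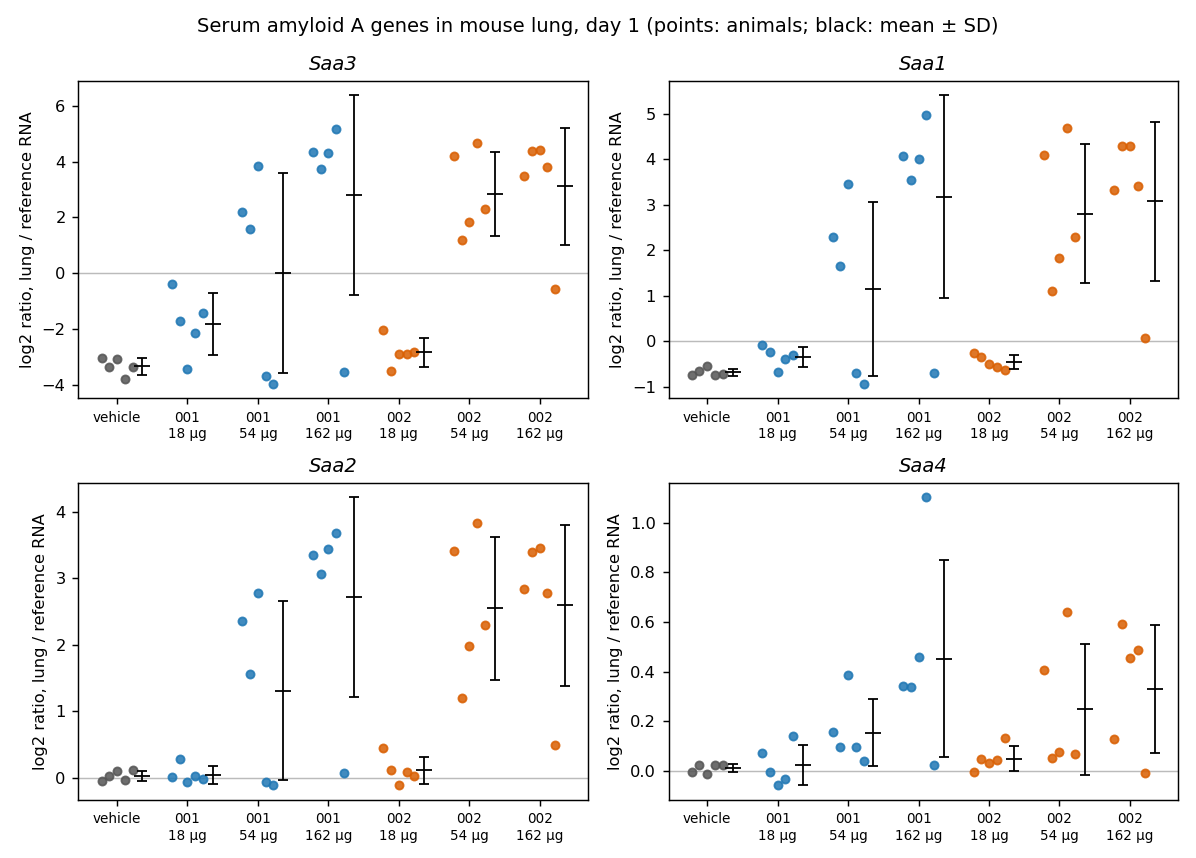
Log2 ratio of lung to reference RNA (vertical axes, a separate scale for each gene) for Saa3, Saa1, Saa2 and Saa4 on day 1, by particle (001, NRCWE-001 in blue; 002, NRCWE-002 in orange) and dose. Points are animals and black bars are the mean ± SD; animal 5 at 162 µg of NRCWE-001 lies at the vehicle level for all 4 genes, with Saa3 at -3.51.

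Saa1 was read by a pair of probes, and its value is their median. The vehicle lungs of day 1 had Saa1 log2 ratios of -0.75, -0.65, -0.56, -0.74 and -0.72. At 54 µg of NRCWE-001 they were 2.29, 1.65, 3.44, -0.70 and -0.94, and at 162 µg they were 4.07, 3.55, 4.00, 4.96 and -0.70. The same 3 NRCWE-001 animals that lacked a high Saa3 value also lacked a high Saa1 value.

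NRCWE-002 gave Saa1 log2 ratios of 4.10, 1.10, 1.84, 4.68 and 2.29 at 54 µg and 3.33, 4.29, 4.30, 3.41 and 0.06 at 162 µg on day 1. The differences from vehicle were 1.84 ± 0.86 (SE, n = 5 against 5) and 3.86 ± 1.00 at 54 and 162 µg of NRCWE-001, and 3.48 ± 0.68 and 3.76 ± 0.78 at the same doses of NRCWE-002. At 18 µg NRCWE-001 gave 0.34 ± 0.11 and NRCWE-002 gave 0.22 ± 0.08. Every animal at 54 and 162 µg of NRCWE-002 was above the vehicle range, and animal 5 at 162 µg was again the lowest.

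Saa2 was read by 1 probe. Its day 1 log2 ratios were -0.06, 0.03, 0.10, -0.03 and 0.11 in the vehicle lungs, of which 4 of 5 had a lung signal well above background. At 54 µg of NRCWE-001 they were 2.36, 1.56, 2.79, -0.06 and -0.12, and at 162 µg they were 3.35, 3.06, 3.45, 3.68 and 0.06. At 54 µg of NRCWE-002 they were 3.42, 1.21, 1.98, 3.83 and 2.30, and at 162 µg they were 2.83, 3.39, 3.46, 2.78 and 0.50. The animals without a high Saa3 value were those without a high Saa2 value.

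The Saa2 differences from vehicle were 1.28 ± 0.60 (SE, n = 5 against 5) at 54 µg and 2.69 ± 0.67 at 162 µg of NRCWE-001, and 2.52 ± 0.48 and 2.56 ± 0.54 for NRCWE-002. At 18 µg they were 0.01 ± 0.07 (-0.05 without animal 2) and 0.08 ± 0.10 (-0.003 without animal 1), against a vehicle SD of 0.07. On this scale Saa2 thus stayed near the vehicle level at the low dose, at which 4 of 5 Saa3 values lay above the vehicle range with either particle. The Saa2 probe was dimmer than that of Saa3, and the part of probe brightness in this was not tested. Within Saa1, at 18 µg of NRCWE-001, the brighter first probe gave 0.63 ± 0.24 and the dim second probe 0.05 ± 0.07.

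Saa4 was the dimmest member. Its probes were well above background in the lung channel on 25 and 23 of the 69 arrays, and intensities reached no more than 243 and 172. On day 1 the Saa4 log2 ratios ranged from -0.01 to 0.03 in the vehicle lungs, from 0.04 to 0.39 at 54 µg and from 0.02 to 1.10 at 162 µg of NRCWE-001. They ranged from 0.05 to 0.64 at 54 µg and from -0.01 to 0.59 at 162 µg of NRCWE-002. The differences from vehicle at 162 µg were 0.44 ± 0.18 (SE, n = 5 against 5) with NRCWE-001 and 0.32 ± 0.12 with NRCWE-002. In the scanner's processed signals, which carry no added constant, they were 2.21 and 1.67. The second Saa4 probe was not well above background in any vehicle lung of day 1, and was so in 4 of 5 lungs at 162 µg of NRCWE-001 and in 3 of 5 at 162 µg of NRCWE-002, so that no fold is given for it.

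How often all exposed lungs of a group lay above all vehicle lungs was also counted. On day 1 this held for all 4 members at 54 µg of NRCWE-002, against 1.69% of all genes, and for 3 members (Saa1, Saa2 and Saa3) at 162 µg, against 3.53%. At 54 µg of NRCWE-001 it held for Saa4 alone, against 2.06%, and at 162 µg for no member, against 1.98%, since animal 5 was at the vehicle level. At 18 µg it held for no member with either particle, against 0.913% and 0.942% for NRCWE-001 and NRCWE-002. For Saa4 at 54 µg it held only for the median of a pair of dim probes. Taken singly, the first probe had 2 of 5 lungs above all vehicle lungs and the second 3 of 5, with either particle. In the deposited values Saa4 did not separate at 54 µg. Its lowest lungs were -0.088 (NRCWE-001) and 0.040 (NRCWE-002), against a highest vehicle lung of 0.094. The rule that chose the genes used these contrasts, so nothing is read from the counts. Counted by animal, Saa3 was above the vehicle range in 25 of the 30 exposed lungs of day 1, Saa1 in 24, Saa2 in 19 and Saa4 in 24. Saa1, Saa2 and Saa3 were all above it in 19 lungs, and no member was above it in 2. The vehicle range of the dim Saa4 was narrow, from -0.011 to 0.026, so that very small differences counted. At 18 µg of NRCWE-002, 4 of 5 lungs were above the Saa4 range with a mean difference of 0.04. Nothing is read from these counts by animal either.

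The particles were compared at matched doses, as a description. On day 1 the Saa3 log2 ratio was higher for NRCWE-002 than NRCWE-001 by 2.83 ± 1.74 (SE, n = 5 against 5) at 54 µg and by 0.31 ± 1.85 at 162 µg, and at 18 µg the difference, NRCWE-002 minus NRCWE-001, was -1.01 ± 0.55. For Saa1 the difference at 54 µg was 1.65 ± 1.09 and for Saa2 it was 1.24 ± 0.77. The medians at 54 µg were closer than the means, at 1.58 for NRCWE-001 and 2.31 for NRCWE-002 for Saa3, since the 2 NRCWE-001 animals at the vehicle level pulled down the mean. At this dose 2 of 5 NRCWE-002 lungs exceeded every NRCWE-001 lung in Saa1, Saa2 and Saa3, and at 162 µg none did.

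Arrays on the same slide gave the comparison within a batch. On slides 1, 3 and 5, which each carried a vehicle lung and NRCWE-001 lungs of day 1, Saa3 was between 7.08 and 7.39 above the slide's own vehicle lung at 162 µg and between 4.95 and 6.90 above it at 54 µg. On slides 8 and 17, which carried vehicle and NRCWE-002 lungs, it was 7.27 and 7.77 above at 162 µg and 7.98 and 5.67 above at 54 µg. The NRCWE-001 animals at the vehicle level were on slides 12 and 14, which held no vehicle lung. Slides 12 and 14 also carried the NRCWE-002 54 µg animals 2 and 3, the lowest of that group in Saa3 at 1.20 and 1.84, and the part of the slide in this was not tested.

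By day 28 the high values were fewer. The 4 vehicle lungs had Saa3 log2 ratios of -3.72, -3.67, -3.46 and -3.73. After 162 µg of NRCWE-001 the values were 0.40, -3.21, -3.41, 1.08 and 2.07, and after 162 µg of NRCWE-002 they were -3.46, -0.76, -3.27, 0.79 and -0.65. In each of these groups 3 lungs were clearly above the vehicle level while the other two lay close to it.

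The middle dose on day 28 gave Saa3 log2 ratios of -3.43, -3.61, -3.28, -3.51 and -3.33 for NRCWE-001 and -1.97, -3.54, -3.18, -0.17 and -2.96 for NRCWE-002. The low dose gave -1.85, -2.99, -3.24, -3.43 and -2.01 for NRCWE-001 and 0.13, -1.57, -3.20, -2.02 and -1.94 for NRCWE-002. The mean at 54 µg was not between those at 18 and 162 µg for either particle. A Saa3 ratio above 0, a level above that of the reference pool, was found in 16 of 30 exposed lungs on day 1 and in 5 of 30 on day 28.

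The day 28 differences of Saa3 from vehicle were 0.94 ± 0.33 (SE, n = 5 against 4), 0.22 ± 0.09 and 3.03 ± 1.14 at 18, 54 and 162 µg of NRCWE-001. For NRCWE-002 they were 1.93 ± 0.54, 1.28 ± 0.61 and 2.18 ± 0.82. In order of group means, NRCWE-001 at 162 µg was followed by NRCWE-002 at 162, 18 and 54 µg, NRCWE-001 at 18 and 54 µg and vehicle, with overlapping values in all 6 neighbouring pairs. The difference between particles at 162 µg, NRCWE-002 minus NRCWE-001, was -0.85 ± 1.40. On slides that held a vehicle lung, Saa3 was 4.08 above it in the 1 NRCWE-001 162 µg lung and 0.26 and 0.47 above it in the NRCWE-002 162 µg lungs. The difference at 54 µg of NRCWE-001 turned to -0.32 when the slide was fitted as a block.

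**Figure D2:**
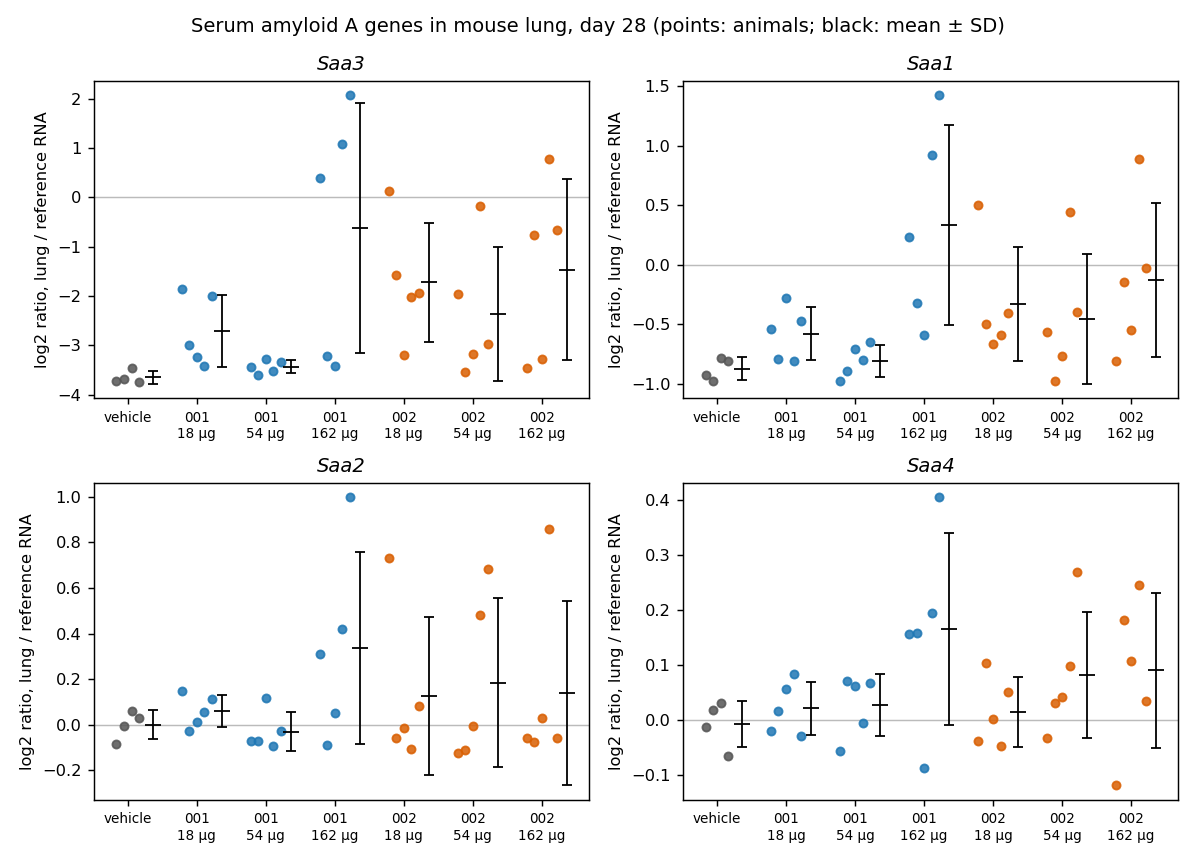
Log2 ratio of lung to reference RNA (vertical axes, a separate scale for each gene) for Saa3, Saa1, Saa2 and Saa4 on day 28, by particle (001, NRCWE-001 in blue; 002, NRCWE-002 in orange) and dose. Points are animals and black bars are the mean ± SD; at 162 µg of NRCWE-001 the 5 lungs span Saa3 values from -3.41 to 2.07, and the vehicle lungs lie between -3.73 and -3.46.

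Saa1 on day 28 ranged from -0.98 to -0.78 in the vehicle lungs. The values were 0.23, -0.32, -0.59, 0.92 and 1.42 at 162 µg of NRCWE-001 and -0.81, -0.14, -0.54, 0.89 and -0.02 at 162 µg of NRCWE-002, with differences from vehicle of 1.20 ± 0.38 (SE, n = 5 against 4) and 0.74 ± 0.29. At the lower doses the differences ranged from 0.07 at 54 µg of NRCWE-001 to 0.54 at 18 µg of NRCWE-002, and the first of these turned to -0.22 with the slide as a block. All 5 lungs at 162 µg of NRCWE-001 were above the vehicle range, and 4 of 5 were at 162 µg of NRCWE-002. The rise lay mostly in the first Saa1 probe. At 162 µg of NRCWE-001 the difference was 2.09 ± 0.71 for the first probe and 0.31 ± 0.08 for the second. At 162 µg of NRCWE-002 it was 1.35 ± 0.52 and 0.14 ± 0.09, with 2 of 5 lungs above the vehicle range in the second probe. The second probe was well above background in 1 of the 4 vehicle lungs.

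On this scale Saa2 and Saa4 were mostly near the vehicle level on day 28. Saa2 ranged from -0.09 to 0.06 in the vehicle lungs, and the highest single values were 1.00 at 162 µg of NRCWE-001, 0.86 at 162 µg of NRCWE-002 and 0.73 at 18 µg of NRCWE-002. Its differences from vehicle lay between -0.03 and 0.34 over the 6 exposed groups, and 1 lung decided the direction of a pair of them: without animal 4 the difference at 162 µg of NRCWE-002 turned from 0.14 to -0.04, and without animal 1 that at 18 µg turned from 0.13 to -0.02. The first Saa4 probe was well above background in no vehicle lung of day 28, in 2 of 5 lungs at 162 µg of NRCWE-001 and in 3 of 5 at 162 µg of NRCWE-002. In the scanner's processed signals the differences from vehicle at 162 µg were larger, at 1.04 against 0.34 for Saa2 with NRCWE-001, and for Saa4 at 1.52 against 0.17 with NRCWE-001 and 0.88 against 0.10 with NRCWE-002.

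All exposed lungs of day 28 lay above all vehicle lungs for Saa1 and Saa3 at 162 µg of NRCWE-001, against 0.709% of all genes, and for the same genes at 18 µg of NRCWE-002, against 0.647%. Taken singly, both Saa1 probes separated at 162 µg of NRCWE-001, but only the first did at 18 µg of NRCWE-002. There the second probe had 3 of 5 lungs above all vehicle lungs and 2 of 5 below all of them. By gene, the separation was found for Saa3 alone at 18 µg of NRCWE-001 (0.953%) and at 162 µg of NRCWE-002 (0.408%), and for no member at 54 µg of NRCWE-001 (0.584%) or of NRCWE-002 (0.681%). The margin for Saa3 alone was thin. The lowest lungs had -3.426 and -3.462 in that order, and the highest vehicle lung -3.463. In the deposited values it was not so in either group, with -3.693 and -3.681 against -3.676. By animal, Saa3 exceeded the vehicle range in 27 of 30 exposed lungs, Saa1 in 23, Saa4 in 19 and Saa2 in 11. In 3 lungs Saa3 was the only member above it, and in 1 lung no member was. The vehicle range of the dim Saa4 was narrow here too, from -0.066 to 0.030, and nothing is read from these counts.

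The members moved together from animal to animal. Over the 69 arrays, which share the reference channel and the groups, Spearman's correlation of the log2 ratios was 0.934 between Saa1 and Saa3, 0.793 between Saa1 and Saa2 and 0.756 between Saa2 and Saa3. Saa4 correlated at 0.669, 0.563 and 0.628 with Saa1, Saa2 and Saa3. After the group means were removed, Pearson's r was 0.976 between Saa1 and Saa2 and 0.926 between Saa1 and Saa3, 0.875 between Saa2 and Saa3, and 0.743, 0.697 and 0.629 between Saa4 and Saa1, Saa2 and Saa3.

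The pair of Saa1 probes differed in size. In the vehicle lungs of day 1 the first probe averaged -1.35 ± 0.17 (SD, n = 5) and was well above background in all 5, while the second had -0.02 ± 0.10 and was well above background in 1. The difference from vehicle at 162 µg of NRCWE-002 was 4.85 ± 0.91 (SE, n = 5 against 5) for the first and 2.68 ± 0.67 for the second. At 18 µg of NRCWE-001 it was 0.63 ± 0.24 and 0.05 ± 0.07. The constant of 50 that was added to every background-corrected signal pulls the ratios of dim probes toward 0, so that sizes of change are compared here between conditions within a probe and not between probes.

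**Figure D3:**
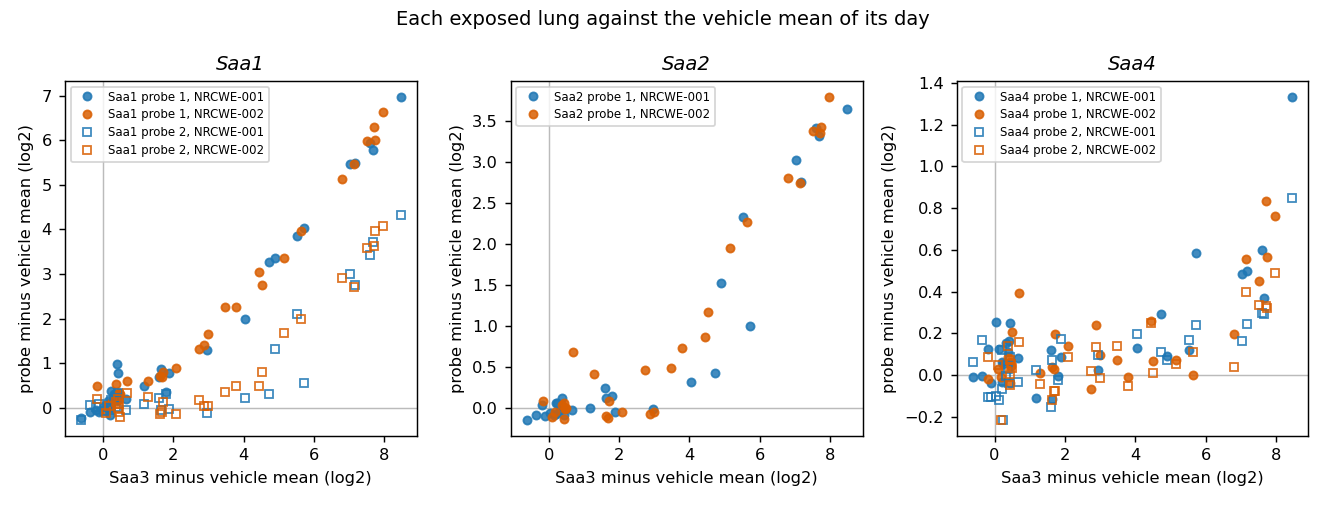
Difference of each exposed lung from the vehicle mean of its day in log2 ratio, with Saa3 on the horizontal axis and the probes of Saa1, Saa2 and Saa4 on the vertical axes, both days together (NRCWE-001 blue, NRCWE-002 orange; circles, first probe; open squares, second probe). The first Saa1 probe tracks Saa3 over the whole range, whereas the second Saa1 probe and Saa2 leave 0 in lungs with a larger Saa3 difference, and Saa4 reaches no more than 1.33. The days differ in this. At a Saa3 difference of 5.53 (day 1, animal 1 at 54 µg of NRCWE-001) the second Saa1 probe was at 2.11 and Saa2 at 2.33. At 5.72 (day 28, animal 5 at 162 µg of NRCWE-001) they were at 0.545 and 0.999. The first Saa1 probe was at 3.85 and 4.04 in these lungs, and the cause was not tested.

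Genes outside the Saa family whose pattern over the 69 arrays was most like each member were taken as the 5 with the highest Spearman correlation, with the other members left out. For Saa3 these were Timp1, an inhibitor of matrix metalloproteinases (0.856), Sod2, the mitochondrial superoxide dismutase (0.825), and the chemokines Ccl2 (0.821), Ccl7 (0.815) and Ccl9 (0.807). For Saa1 they were Timp1 (0.870), Ccl2 (0.831), the myeloid lectin receptor Clec4d (0.822), Ccl7 (0.812) and Orm1, an acid glycoprotein of the acute phase (0.801). For Saa2 they were Jpt2 (0.730), the protease inhibitor Cstb (0.725), Dclk1 (0.725), Orm2 (0.724) and Pla1a (0.721). After the group means were removed, Pearson's r with Saa2 was 0.455 for Dclk1 and 0.485 for Jpt2. It was 0.566 for Pla1a, 0.685 for Cstb and 0.917 for Orm2. For Saa4 they were Clmp (0.725), Plxnb2 (0.709), Sod2 (0.690), Ccl7 (0.689) and the zinc transporter Slc39a14 (0.687). The ranks for Saa4 rest largely on dim values, since its probes were well above background on 25 and 23 of the 69 arrays. Pearson's r with Saa4 was 0.349 for Plxnb2 and 0.764 to 0.826 for the others. After the group means were removed it was 0.266 for Plxnb2 and 0.619 to 0.721 for the others.

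The other genes of the pathway were tested in lists that hold no Saa gene, which were themselves chosen with earlier results of these data known. Of 58 genes in 4 lists, 56 were measured: SAA receptors and the carrier Apoa1, cytokines and receptors that induce SAA, transcription regulators of SAA promoters, and other acute-phase proteins. In limma's fit over all genes with Benjamini-Hochberg adjustment, 15 of the 56 rose and none fell at 162 µg of NRCWE-001 on day 1, where 0.562% of all genes were called in either direction. At 162 µg of NRCWE-002, 14 rose and none fell (0.59% of all genes), at 54 µg of NRCWE-002, 4 rose (0.0624%), and at 54 µg of NRCWE-001 none was called (0% of all genes), with 11 of the 56 at an unadjusted p below 0.05. The median log2 difference of the 56 genes was 0.33 at 162 µg of NRCWE-001 and 0.35 at 162 µg of NRCWE-002, against 0.01 over all genes for either particle. These comparisons share the day 1 vehicle lungs.

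The list of other acute-phase proteins held most of the calls, with 10 of 26 higher at 162 µg of NRCWE-001, 11 at 162 µg of NRCWE-002 and 4 at 54 µg of NRCWE-002. Lcn2, which encodes a protein that binds bacterial iron carriers, rose by 3.02 ± 0.61 (SE; limma adjusted p = 0.00721) at 162 µg of NRCWE-002 and by 2.75 ± 0.61 (adjusted p = 0.014) at 162 µg of NRCWE-001. Orm2, a second acid glycoprotein, rose by 2.23 ± 0.43 (adjusted p = 0.0048) and 2.81 ± 0.43 (adjusted p = 0.000286) in the same order. Orm1 rose by 1.72 ± 0.36 (adjusted p = 0.0109) and 2.31 ± 0.36 (adjusted p = 0.000338), and the protease inhibitor gene Serpina3n by 1.62 ± 0.31 (adjusted p = 0.0048) and 1.52 ± 0.31 (adjusted p = 0.00716). The 4 genes called at 54 µg of NRCWE-002 were Lcn2, Orm2, Hpx, which encodes the haem carrier hemopexin, and Cp, which encodes the copper protein ceruloplasmin.

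Of the 11 measured inducing cytokines and receptors, 3 rose at 162 µg of NRCWE-001 and 1 at 162 µg of NRCWE-002. Il1b, which encodes interleukin-1β, rose with both, by 1.62 ± 0.36 (SE; limma adjusted p = 0.0146) and 1.67 ± 0.36 (adjusted p = 0.0111), and all 5 lungs of each group were above the vehicle lungs, animal 5 included. Of the 11 regulators, 2 rose at 162 µg of each particle. Socs3, a feedback inhibitor of cytokine signalling through STAT3, rose by 0.69 ± 0.15 (adjusted p = 0.013) with NRCWE-001 and by 0.61 ± 0.15 (adjusted p = 0.0338) with NRCWE-002. Nfkbia, which encodes the inhibitor of NF-κB, rose by 0.71 ± 0.18 (adjusted p = 0.0364) with NRCWE-002, and its difference of 0.48 ± 0.18 with NRCWE-001 did not pass (adjusted p = 0.342).

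None of the 8 receptor and carrier genes was called in either direction at 54 or 162 µg on day 1, with 1 of 8 at an unadjusted p below 0.05 at 162 µg of either particle, 2 of 8 at 54 µg of NRCWE-002 and 0 at 54 µg of NRCWE-001. Over all 17628 genes, 804 and 1250 had such a p at 54 and 162 µg of NRCWE-001, and 1031 and 1576 at the same doses of NRCWE-002. The largest differences of this list at 162 µg of NRCWE-002 were those of Fpr1, a formyl peptide receptor, at -0.59 ± 0.26 (SE; limma adjusted p = 0.458), and of Tlr2, a pattern receptor, at 0.28 ± 0.20 (adjusted p = 0.789). On day 28, none of the 56 pathway genes was called for any particle or dose, with 0 to 17 at an unadjusted p below 0.05 in limma's fit. The 17 were at 162 µg of NRCWE-001, where 1520 of all 17628 genes had such a p. The regulators' median log2 difference at 162 µg was 0.38 (NRCWE-001) and 0.40 (NRCWE-002), against 0.41 and 0.48 on day 1. That of the other acute-phase proteins was 0.135 and 0.154, against 0.66 and 0.63 on day 1. Over all genes 21 were called higher and 13 lower at 18 µg of NRCWE-001, 6 higher and 2 lower at 162 µg of NRCWE-001, 1 higher at 162 µg of NRCWE-002 and none in the other groups of day 28, with 513 to 1520 at an unadjusted p below 0.05.

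Single lungs moved the day 1 counts of pathway genes, and the calls over all genes moved beside them. At 162 µg of NRCWE-001 the count of 15 became 9, 8 and 4 without its animals 1, 3 and 4, and 20 without animal 5, while the calls over all genes went from 99 to 41, 27, 14 and 290. At 162 µg of NRCWE-002 the count of 14 became 4, 8 and 7 without its animals 2, 3 and 4, with 24, 38 and 33 calls over all genes in place of 104, and 9 without vehicle animals 1, 2, 3 or 5, with 49 to 59. At 54 µg of NRCWE-002 the count of 4 became 0 without its animals 1 or 4 or vehicle animal 3, and 8 without its animal 2, while the calls over all genes went from 11 to 0, 0, 3 and 17. Over the 10 fits that each left out 1 lung of the comparison, Lcn2, Orm2 and Serpina3n stayed called in all 10 at 162 µg of NRCWE-002, Il1b and Orm1 in 8, and Nfkbia and Socs3 in 2. Orm1 and Orm2 stayed called in all 10 at 162 µg of NRCWE-001, Serpina3n in 9, Socs3 in 8, and Lcn2 and Il1b in 7, and at 54 µg of NRCWE-002 Lcn2 and Orm2 did in 7. Nfkbia and Socs3 were also not called at 162 µg of NRCWE-002 with the slide as a fixed block. With the slide as a random block, 18 pathway genes were called at 54 µg of NRCWE-002, of 197 over all genes, and 5 at 54 µg of NRCWE-001, of 78.

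**Figure D4:**
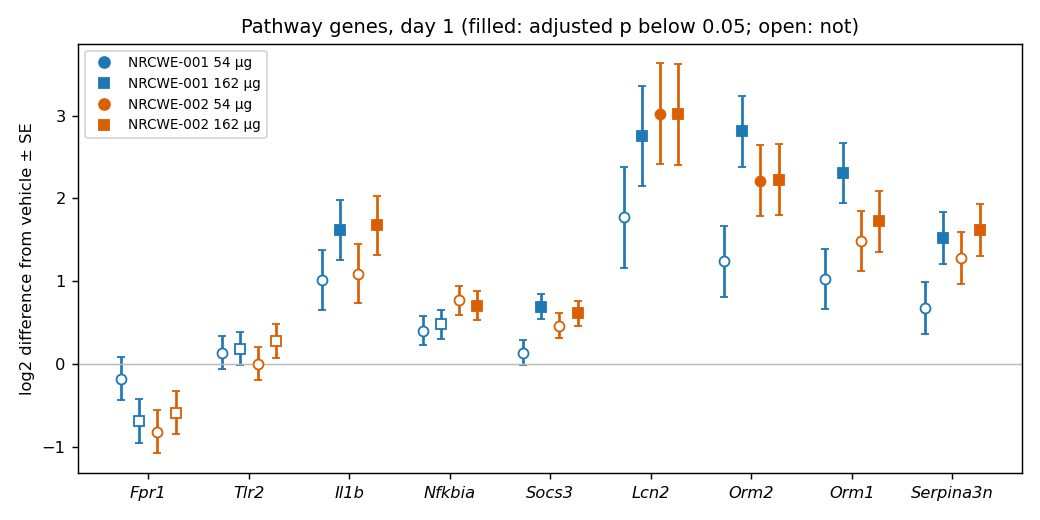
Log2 difference from the day 1 vehicle group ± SE (vertical axis) for 9 pathway genes at 54 µg (circles) and 162 µg (squares) of NRCWE-001 (blue) and NRCWE-002 (orange), 5 mice a group; filled symbols passed an adjusted p of 0.05 in limma's fit. Lcn2, Orm2, Orm1, Serpina3n, Il1b and Socs3 are filled at 162 µg of both particles, and Fpr1 and Tlr2 are open throughout.

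Markers of other cells are given beside these values, because fewer cells of a type and less RNA per cell cannot be told apart in whole lung. All 6 measured hepatocyte markers of 8 listed passed the filter, Ttr on 10 and Apoa2 on 17 of 69 arrays, and none was called at 54 or 162 µg on day 1. Their mean log2 ratio ranged from 0.28 to 0.35 in the vehicle lungs of day 1, from 0.15 to 0.29 at 162 µg of NRCWE-001 and from 0.24 to 1.29 at 162 µg of NRCWE-002. The 1.29 was that of animal 3, the highest of its group in Saa1 (4.30), Saa2 (3.46) and Saa3 (4.41). The highest day 1 value, 1.32, was that of animal 3 at 18 µg of NRCWE-001, whose ratios were -0.68 in Saa1, -0.07 in Saa2 and -3.42 in Saa3. The highest day 28 value, 2.87, was that of animal 5 at 54 µg of NRCWE-002, whose Saa3 ratio was -2.96 and whose Saa2 ratio of 0.68 was the highest of its group.

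Of 8 measured neutrophil markers, Csf3r (0.80, limma adjusted p = 0.0273) and Cxcr2 (0.69, adjusted p = 0.0204) were called higher at 162 µg of NRCWE-001. None was called at 162 µg of NRCWE-002, and 0.562% and 0.59% of all genes were called with the particles. At 162 µg of NRCWE-001 the markers not called were S100a8 (0.88), Retnlg (0.65), Mmp9 (0.65), S100a9 (0.23), Elane (0.06) and Mpo (0.006). With NRCWE-002, Mpo was at -0.16 and Elane at -0.02, and the rest were above 0. The mean log2 ratio of the list ranged from 1.20 to 1.59 in the vehicle lungs of day 1, from 1.38 to 2.39 at 162 µg of NRCWE-001 and from 1.42 to 1.96 at 162 µg of NRCWE-002. Animal 5 at 162 µg of NRCWE-001, at the vehicle level of Saa3, had the lowest neutrophil value of its group. It was otherwise at 162 µg of NRCWE-002, since animal 5, the lowest in Saa3, had a neutrophil value of 1.77 and animal 3, the highest in Saa3 at 4.41, had the lowest of the group at 1.42. Of the 7 measured macrophage and monocyte markers none was called, and their mean ranged from 1.89 to 2.25 in vehicle lungs and from 1.97 to 2.36 at 162 µg of either particle. Adipocyte markers reached 3.64 in animal 4 at 18 µg of NRCWE-002 on day 28, whose Saa3 ratio was -2.02, and 5 of 7 were at an unadjusted p below 0.05 in that group with none called. The next values were 2.58 in animal 1 of that group, which had its highest Saa1 (0.51), Saa2 (0.73) and Saa3 (0.13), and 2.42 in animal 4 at 162 µg of NRCWE-002, the highest of its group in Saa3 (0.79) and Saa2 (0.86). Also on day 28, an unadjusted p below 0.05 was found for 4 of 5 cardiac muscle markers at 162 µg of NRCWE-002 (median difference 1.76), 4 of 5 lung endothelium markers at 162 µg of NRCWE-001 (-0.53) and 4 of 6 hepatocyte markers at 54 µg of NRCWE-002 (0.49), and none of these was called. The part of these cells in the Saa values was not tested.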

How the data were processed

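The authors deposited 1 scanner file per array, with intensity values per spot and channel from Agilent Feature Extraction 11.0.1.1 (array annotation on mm9), and a table of log2 ratios after LOWESS normalisation. Lung RNA was labelled with Cy5 and the reference with Cy3, without dye swap. From the intensities, spots were corrected by normexp with an offset of 50, leaving spots with a background over 10 MAD from the median out of the curve, and normalised by loess; outlier spots were left out and repeat spots and probes of a gene reduced to their median. The resulting ratios correlated with the deposited log2 values at 0.988 to 0.995 per array. Column medians of the deposited table lay between -0.0586 and -0.00264, its direction matched lung over reference, and its further centring is not known. Probes well above background in the lung channel on at least 4 arrays were kept (36452). Symbols came from RefSeq by transcript accession, which 27479 of 41174 probes (66.7%) had and 13695 lacked.

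The Saa genes were not tested. Differences of group means carry the SE of both groups. Pathway and marker genes were tested with limma 3.58.1 in R 4.3.3, in 1 fit of 69 arrays and 14 group means, with Benjamini-Hochberg adjustment over 17628 genes; the step was tested on simulated data. Lif, Nfkb1 and 5 marker genes were not measured. Animals were numbered in accession order, and each RNA came from 1 mouse. The number of arrays limits the precision. The genes and lists were chosen with earlier results of these data known. In each pathway list, up to 4 called genes with the largest difference at 162 µg of NRCWE-002 on day 1 are named, or the 2 largest where none was called. Alternatives were other background corrections, the deposited and the scanner's processed values, median centring, no filter, the mean over probes, slide or scan day as a block, and leaving out each array.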

Additional observations from a re-analysis of the deposited data

Results flagged for a closer look

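Of 56 combinations of a member and a group of 4 or 5 arrays, 10 held an array far from the others by Dixon's criterion, which chance gives in about 1 of 20 groups. The members moved together and the same animals recur among the flags. The combinations are therefore not independent, and the count cannot be set against that rate. At 162 µg of NRCWE-001 on day 1, animal 5 stood below the rest in Saa1 (-0.70), Saa2 (0.0641) and Saa3 (-3.51). At 162 µg of NRCWE-002 on day 1, animal 5 did so in Saa1 (0.0637), Saa2 (0.50) and Saa3 (-0.57). At 18 µg of NRCWE-001 on day 1, animal 2 was high in Saa2 (0.28). On day 28, animal 1 at 18 µg of NRCWE-002 was high in Saa1 (0.51) and Saa2 (0.73), and animal 4 at 162 µg of NRCWE-002 was high in Saa2 (0.86).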

How the results depend on the processing

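No paired analysis was possible because the labels give each animal only a running sample number, so that replicate numbers follow accession order. With slide as a fixed block, 5, 23 and 17 pathway genes were called on day 1 at 54 and 162 µg of NRCWE-001 and 54 µg of NRCWE-002, and the same block fitted as random gave 5 and 18 at 54 µg of the particles. Scan day as a block gave 1 and 11 there, against 0, 15 and 4 without a block. Calls over all genes rose too, from 0, 99 and 11 to 132, 758 and 245 with slide as a fixed block. The scanner's processed signals gave 8 in place of 14 at 162 µg of NRCWE-002, with 70 in place of 104 over all genes. Leaving out 1 array gave 4 to 20 at 162 µg of NRCWE-001, 0 to 8 at 54 µg and 4 to 17 at 162 µg of NRCWE-002, and 0 throughout at 54 µg of NRCWE-001, with 14 to 290, 0 to 17, 24 to 212 and 0 to 1 over all genes.

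Of the 48 differences of the members from vehicle, 32 moved by less than the spread between replicates under the scanner's processed signals (shifts from -0.18 to 1.77), 38 with slide as a fixed block (-0.54 to 2.34) and 38 with scan day as a block (-0.07 to 1.97). Under processed signals Saa4 at 162 µg differed from vehicle by 2.21 and 1.67 on day 1 and by 1.52 and 0.88 on day 28 (NRCWE-001, then NRCWE-002), against 0.44, 0.32, 0.17 and 0.10, and Saa2 at 162 µg of NRCWE-001 on day 28 by 1.04 against 0.34. Saa4 there was also 0.32 with no background correction and 0.32 in the deposited values, and at 162 µg of NRCWE-002 on day 28 it was 0.22 with median centring. Saa3 at 54 µg of NRCWE-001 on day 28 turned from 0.22 to -0.32 with slide as a fixed block, and Saa4 at 18 µg of NRCWE-002 on day 1 turned from 0.04 to -0.006 in the deposited values and to -0.037 under processed signals. On day 1 at 162 µg, the differences of Saa1, Saa2 and Saa3 stayed above 0 in all alternatives run. When single arrays were left out, they lay between 5.53 and 7.69 for Saa3, 3.41 and 4.83 for Saa1 and 2.34 and 3.35 for Saa2. The other settings, among them the processed signals and the blocks, are not covered by these limits. The cause of these shifts was not tested.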
